A study of Homo sapiens with 62 samples.

Results

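Sphingolipids are membrane lipids built on ceramide, and the 10 genes described here encode enzymes that make ceramide and add sugars to it. The genes are FA2H, A4GALT, UGCG, B4GALT5, B4GALT6, ST3GAL5, B3GNT5, CERS2, CERS6 and SPTLC2, taken by name from tables of 29794 genes, and all 10 were found in the tables of both cell lines. The list was put together because reads of FA2H and A4GALT fell after loss of the transcription factor KLF5, so the list was selected on the T>C read levels of the contrast of degrader against inactive analogue. Those values are given as a description with no test. Comparisons with 2 inhibitors and between the lines are not named in that choice and carry tests. The list was, however, made with earlier results of these data known.

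Ceramide is made on the endoplasmic reticulum from serine and fatty acids, and glucose is then added to it in the Golgi apparatus to give glucosylceramide, the base of most glycosphingolipids. Addition of galactose gives lactosylceramide, a branch point from which separate enzymes lead to the gangliosides, the globosides and the lacto-series lipids of the cell surface. In epithelia, ceramides with hydroxylated fatty acids and complex glycosphingolipids are enriched in the apical membrane.

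New RNA was measured by SLAM-seq in the human pancreatic ductal adenocarcinoma lines AsPC-1 and T3M-4, which serve as models of the classical and the basal-like subtype. Cells took up the uridine analogue 4sU before harvest, the RNA was alkylated, and a read that came from RNA made during labelling then shows T>C conversions. Every group shared the genotype FKBP12-F36V-FLAG-KLF5_sgEndogenousKLF5, in which the cell's own KLF5 was cut by Cas9 with an sgRNA and a guide-resistant KLF5 cDNA with a degron tag was expressed from a lentivirus, in selected populations that are not described as single clones. At 4 h, AsPC-1 was represented by 10 libraries with the degrader dTAGv-1 (dTAG), 10 with its inactive analogue dTAGv-1-NEG (NEG), 5 with CB-6644, which inhibits the ATPase formed by RUVBL1 and RUVBL2, 5 with the solvent DMSO and 4 with NVP-2, an inhibitor of the transcription elongation kinase CDK9. At 12 h there were 4 AsPC-1 libraries with CB-6644 and 4 with DMSO, and T3M-4 had 4 libraries in each of the 5 groups at 4 h. The first digit of a replicate number (1, 2 or 3) was read as an experiment, 3 of them for dTAG and NEG in AsPC-1 and 2 in T3M-4. The labels do not state this reading. Nothing in them says how the replicates within an experiment were obtained, so p-values measure the spread between these libraries.

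Library depth was high. An AsPC-1 library held 82676553 to 200298262 reads in all and a T3M-4 library 111132257 to 244524608, and outside the NVP-2 groups 7.58% to 10.6% and 11% to 14.3% of them were T>C reads. The AsPC-1 libraries fell into 3 sets of 17, 17 and 8 by the 500 genes that varied most, with the 10 genes left out, with 4, 4 and 2 libraries in both the dTAG and the NEG group and 2, 2 and 0 in both 12 h groups. At 4 h they were less even, with 1, 2 and 2 libraries of CB-6644, 2, 1 and 2 of DMSO and 2, 2 and 0 of NVP-2. Between the first and the second set, the mean all-reads levels of the control libraries were 37.9 and 18 CPM for UGCG, 8.90 and 18.8 CPM for B3GNT5 and 16.1 and 14.8 CPM for FA2H. All 6 basal-like markers (TP63, KRT5, KRT17, KRT6A, KRT14 and S100A2) were higher in every T3M-4 DMSO library than in any AsPC-1 one, with summed all-reads levels of 2903 to 4607 against 15.4 to 57.1 CPM (counts per 1000000 reads of the library). Of the 8 classical markers, 3 were higher in every AsPC-1 DMSO library and 0 in every T3M-4 one, with sums of 89.1 to 366 against 55.5 to 79.5 CPM. KLF5 itself, whose product the degrader removes as protein, had more T>C reads with dTAG, at 156 ± 18.3 against 105 ± 20.2 CPM in AsPC-1 (SD, n = 10 each) and 1097 ± 75.5 against 559 ± 44.4 CPM in T3M-4 (n = 4 each), so its reads do not check the labels.

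The promoters of the 2 genes that gave the list its reason are shown, with that of UGCG for contrast, because KLF factors are known for binding GC-rich boxes and CACCC elements. Each run is the 250 bases before an annotated start, read from the RefSeq promoter table (GRCh38.p14) on the strand of the gene, and capitals mark GGGCGGG or GGGNGTGG on either strand. On the same build the FA2H gene (ENSG00000103089.9) spans 74712955 to 74774831 of chromosome 16, A4GALT (ENSG00000128274.17) spans 42692121 to 42721298 of chromosome 22 and UGCG (ENSG00000148154.10) spans 111896814 to 111935369 of chromosome 9, and reads were counted over their 3′UTR exons. The FA2H run lies at chr16:74774821-74775070 (minus strand), A4GALT has 2 entries at chr22:42720871-42721120 and chr22:42721302-42721551 (minus strand), and the UGCG run lies at chr9:111896564-111896813 (plus strand).
FA2H: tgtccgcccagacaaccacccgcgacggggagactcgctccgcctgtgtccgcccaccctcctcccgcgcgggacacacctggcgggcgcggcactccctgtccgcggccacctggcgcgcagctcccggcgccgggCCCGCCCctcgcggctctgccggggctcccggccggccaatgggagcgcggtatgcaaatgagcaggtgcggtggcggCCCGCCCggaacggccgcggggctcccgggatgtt
A4GALT, inner start: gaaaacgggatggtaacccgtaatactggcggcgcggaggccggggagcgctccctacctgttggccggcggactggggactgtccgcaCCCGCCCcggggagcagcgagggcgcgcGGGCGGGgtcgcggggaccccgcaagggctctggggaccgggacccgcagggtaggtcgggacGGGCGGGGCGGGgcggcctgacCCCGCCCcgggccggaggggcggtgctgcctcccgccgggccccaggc
A4GALT, outer start: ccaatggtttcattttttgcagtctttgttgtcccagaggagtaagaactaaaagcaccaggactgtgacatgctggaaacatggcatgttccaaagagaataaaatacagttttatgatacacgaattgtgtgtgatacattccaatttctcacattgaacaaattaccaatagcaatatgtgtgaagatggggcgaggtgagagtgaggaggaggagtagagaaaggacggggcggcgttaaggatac
UGCG: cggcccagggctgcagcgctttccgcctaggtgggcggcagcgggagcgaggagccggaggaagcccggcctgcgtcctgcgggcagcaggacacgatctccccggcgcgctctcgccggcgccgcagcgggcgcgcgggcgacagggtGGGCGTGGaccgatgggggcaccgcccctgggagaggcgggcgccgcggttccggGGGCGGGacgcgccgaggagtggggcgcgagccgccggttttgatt
The FA2H run held GGGCGGG 2 times and GGGNGTGG 0 times. Plain CACCC was not counted in any run. The FA2H and the inner A4GALT run hold it, and the UGCG run holds it on the other strand. The inner A4GALT run held GGGCGGG 5 times, in part overlapping, and the outer run held neither. The UGCG run held each motif 1 time. RefSeq entries were found for 8 of the 10 genes (CERS2 and B4GALT6 had none), and every one of the 8 held GGGCGGG in at least 1 entry, whereas GGGNGTGG was found in 2, UGCG and CERS6. Over all 35116 promoter entries of this length, 31.5% held GGGCGGG and 15.7% held GGGNGTGG. These shares are by entry, whereas the 8 genes had 13 entries and were counted by gene, so the numbers are not directly comparable. These are matches of letters and not measured binding sites.

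The steady-state levels of the 10 genes in the untreated state were compared first, with all reads of the DMSO libraries at 4 h in both lines. T3M-4 cells held 45.8-fold more A4GALT RNA and more CERS6 and B4GALT5 RNA, whereas AsPC-1 cells held more ST3GAL5, B4GALT6, CERS2, SPTLC2 and FA2H RNA. Thus 8 of 10 genes were called at an adjusted p under 0.05 in edgeR's quasi-likelihood test with Benjamini-Hochberg adjustment, 3 higher and 5 lower in T3M-4. The lines differed widely, and 55.7% of the 15464 genes tested were called. The median log2 difference was -0.86 over the 10 genes and 0.09 over all genes. Each subtype was represented by 1 line, so the comparison is of these lines and not of subtypes, and in bulk libraries fewer cells that express a gene and less RNA per cell cannot be told apart.

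The first steps make ceramide. SPTLC2, a subunit of serine palmitoyltransferase, which catalyses the first step of sphingolipid synthesis, had 17.5, 32.1, 13.4, 36.2 and 29.1 CPM in the 5 AsPC-1 libraries and 9.44, 8.05, 8.88 and 10.4 CPM in the 4 T3M-4 libraries. The groups did not overlap, and the level was 2.96-fold lower in T3M-4 (log2 difference -1.57 ± 0.28 SE, adjusted p = 0.000694, edgeR). CERS2, the ceramide synthase for very long acyl chains, had 105, 114, 111, 116 and 109.5 CPM in AsPC-1 and 23.2, 36.9, 32.8 and 36.2 CPM in T3M-4. This is a 3.67-fold lower level (log2 -1.88 ± 0.17, adjusted p = 6.62e-06, edgeR), also without overlap. CERS6, the synthase for long chains, went the other way, with 11.2, 12.7, 9.68, 10.2 and 9.66 CPM in AsPC-1 and 20.8, 19.9, 29.4 and 26.3 CPM in T3M-4 (log2 1.08 ± 0.16, adjusted p = 0.00018, edgeR). FA2H, which hydroxylates the fatty acid that goes into ceramide, had 21.0, 17.1, 16.8, 15.5 and 17.4 CPM in AsPC-1. In T3M-4 it had 9.01, 11.9, 5.31 and 6.28 CPM, all below the lowest AsPC-1 library (log2 -1.20 ± 0.24, adjusted p = 0.00165, edgeR).

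Glucose and galactose are added next. UGCG, the glucosylceramide synthase, had 18.8, 26.9, 13.6, 28.1 and 29.0 CPM in AsPC-1 and 23.6, 16.3, 13 and 16 CPM in T3M-4, with overlap and no call (log2 -0.52 ± 0.25, adjusted p = 0.0977, edgeR; 0.00857 to 0.204 over 14 alternatives). It was called without AsPC-1 DMSO replicate 1.3 (log2 -0.66, adjusted p = 0.0264), without T3M-4 DMSO replicate 1.1 (-0.69, adjusted p = 0.0441) and with T>C reads in place of all reads (-1.01, adjusted p = 0.00857). B4GALT5 and B4GALT6 are the lactosylceramide synthases. B4GALT5 had 26.7, 26.1, 34.6, 31.4 and 32.7 CPM in AsPC-1 and 82.0, 50.1, 46.1 and 40.9 CPM in T3M-4, without overlap (log2 0.75 ± 0.21, adjusted p = 0.0118, edgeR; 8.82e-06 to 0.114 over 14 alternatives, 13 of them called). The call was lost with T>C reads in place of all reads (log2 0.37, adjusted p = 0.114). B4GALT6 was sparsely read, with 1.73, 3.12, 0.737, 0.482 and 0.259 CPM in AsPC-1 and 0.123, 0.126, 0.219 and 0.0981 CPM in T3M-4 (log2 -3.22 ± 0.72, adjusted p = 0.00305, edgeR). Its AsPC-1 levels followed the library sets, with mean T>C levels of 6.51, 1.88 and 0.715 CPM in the control libraries of the 3 sets.

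Beyond lactosylceramide the routes divide, and A4GALT and ST3GAL5 differed between the lines in opposite directions. A4GALT, which makes globotriaosylceramide and so opens the globo series, had 2.61, 2.41, 4.32, 3.54 and 3.43 CPM in AsPC-1 and 98.7, 219.7, 153 and 168 CPM in T3M-4. The T3M-4 level was 45.8-fold higher (log2 5.52 ± 0.30, adjusted p = 2.56e-07, edgeR). ST3GAL5, which adds sialic acid to make the ganglioside GM3, had 574, 436, 707, 489 and 674 CPM in AsPC-1 and 92.2, 101, 31.7 and 32.3 CPM in T3M-4, a 9.58-fold lower level (log2 -3.26 ± 0.42, adjusted p = 8.58e-05, edgeR). Within T3M-4 it also differed between the experiments, with means over the DMSO and NEG libraries of 97.9 CPM in experiment 1 and 31.2 CPM in experiment 2, a spread that any T3M-4 comparison of this gene holds. B3GNT5, which starts the lacto series, had 9.43, 9.66, 22.6, 12.9 and 13.8 CPM in AsPC-1 and 13.7, 12.3, 9.74 and 10.8 CPM in T3M-4, with full overlap and no call in the main test or in any of 14 alternatives (log2 -0.34 ± 0.28, adjusted p = 0.316, edgeR).

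**Figure D1:**
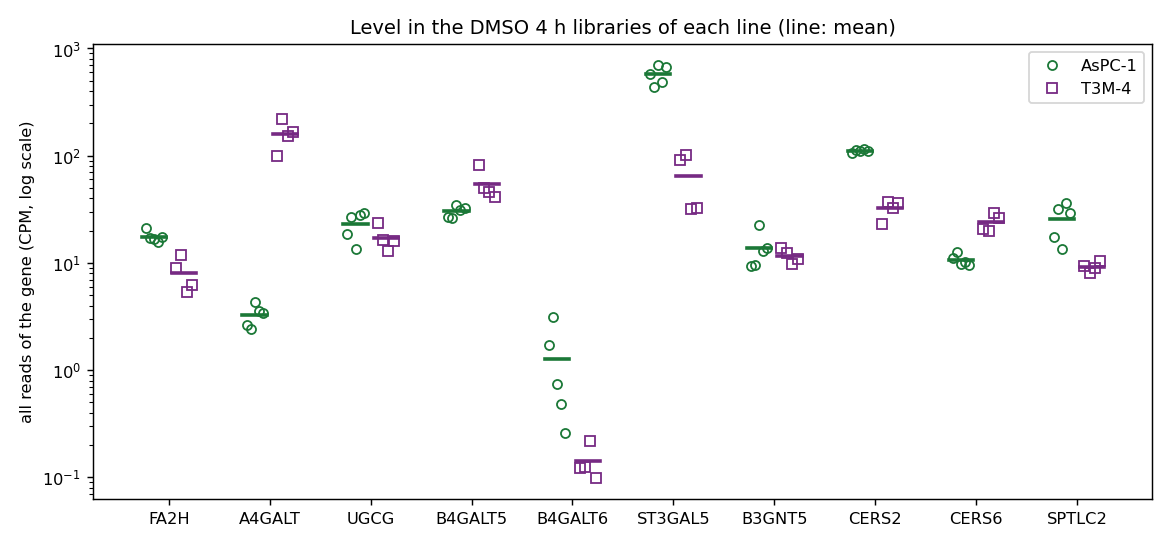
All-reads level of each of the 10 genes in CPM (log axis) in the DMSO libraries at 4 h, 5 of AsPC-1 and 4 of T3M-4; points are libraries and lines are means. A4GALT stood between 98.7 and 219.7 CPM in T3M-4 and between 2.41 and 4.32 CPM in AsPC-1, and ST3GAL5 showed the opposite order.

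The wider set of 61 sphingolipid genes, listed by role without these 10, also differed between the lines. Of 55 tested, 16 were higher and 21 lower in T3M-4, beside the 55.7% called over all genes. By role, 7 of 13 ceramide synthesis genes were higher and 3 lower, and 4 of 19 breakdown genes were higher and 9 lower. GAL3ST1, the sulfatide-making sulfotransferase, had 16.8 to 32.1 CPM in AsPC-1 and at most 0.0365 CPM in T3M-4. GALC, the lysosomal galactosylceramidase, had 12.1 to 22.9 CPM in AsPC-1 and 0.765 to 1.28 CPM in T3M-4 (log2 -4.18). B3GALT5, which extends lacto-series chains, had 49.3 to 113 CPM in AsPC-1 and 2.72 to 4.95 CPM in T3M-4 (log2 -4.37). In the other direction, B3GALNT1, which converts globotriaosylceramide to globoside and so acts directly after A4GALT, had 0 reads in all 5 AsPC-1 libraries and 25.7 to 52.1 CPM in T3M-4, at least 709-fold higher with a floor of 3 counts per library. CERS4, a further ceramide synthase, was likewise at 0 in AsPC-1 and had 3.03 to 4.22 CPM in T3M-4, at least 83.6-fold higher. ST3GAL2, a sialyltransferase of gangliosides, had 18.4 to 38.8 CPM in AsPC-1 and 1.44 to 2.14 CPM in T3M-4 (log2 -3.81). Floors and intervals cover counting error only.

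The share of a gene's reads that carried T>C conversions, its labelled share, rises with the fraction of the RNA that was made during labelling and also depends on how many T positions the reads cover. It is read within a gene and needs no scaling for depth, but it moves with the labelled share of the whole library, which differed between groups. UGCG had a median share of 51.5% (48.5% to 60.7%) over 19 AsPC-1 control libraries (DMSO and NEG), above the other 9 genes there, and of 44.5% (37.9% to 50%) over 8 T3M-4 control libraries, where the sparsely read B4GALT6 had a higher median. B3GNT5 had 35.1% (28.3% to 44.4%) and 39.6% (30.1% to 43.9%), and B4GALT5 had 31.0% (28.2% to 38.8%) and 29.9% (28.3% to 33.3%). These shares stood well above that of the whole library, which was 10.1% ± 0.62 in AsPC-1 DMSO libraries at 4 h (SD, n = 5) and 12.4% ± 1.56 in T3M-4 (n = 4).

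Lower shares were found for the other enzymes. ST3GAL5 had a median of 18.8% (14.0% to 22.7%) in AsPC-1 and 29.3% (23.1% to 42.3%) in T3M-4, without overlap between the lines. SPTLC2 had 18.1% and 18.7%, CERS6 13.9% and 19.6%, and CERS2 11.6% and 11.3%. FA2H had 11.6% (8.10% to 14.5%) and 14.9% (9.52% to 17.2%), close to the whole library, and A4GALT had 7.48% (0% to 16.7%) and 11.9% (7.14% to 14.0%). B4GALT6 shares, 17.8% (6.56% to 42.7%) and 46.6% (10% to 75%), rest on few reads. In every library outside NVP-2, the shares of UGCG and B3GNT5 were higher than any share of FA2H or A4GALT.

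**Figure D2:**
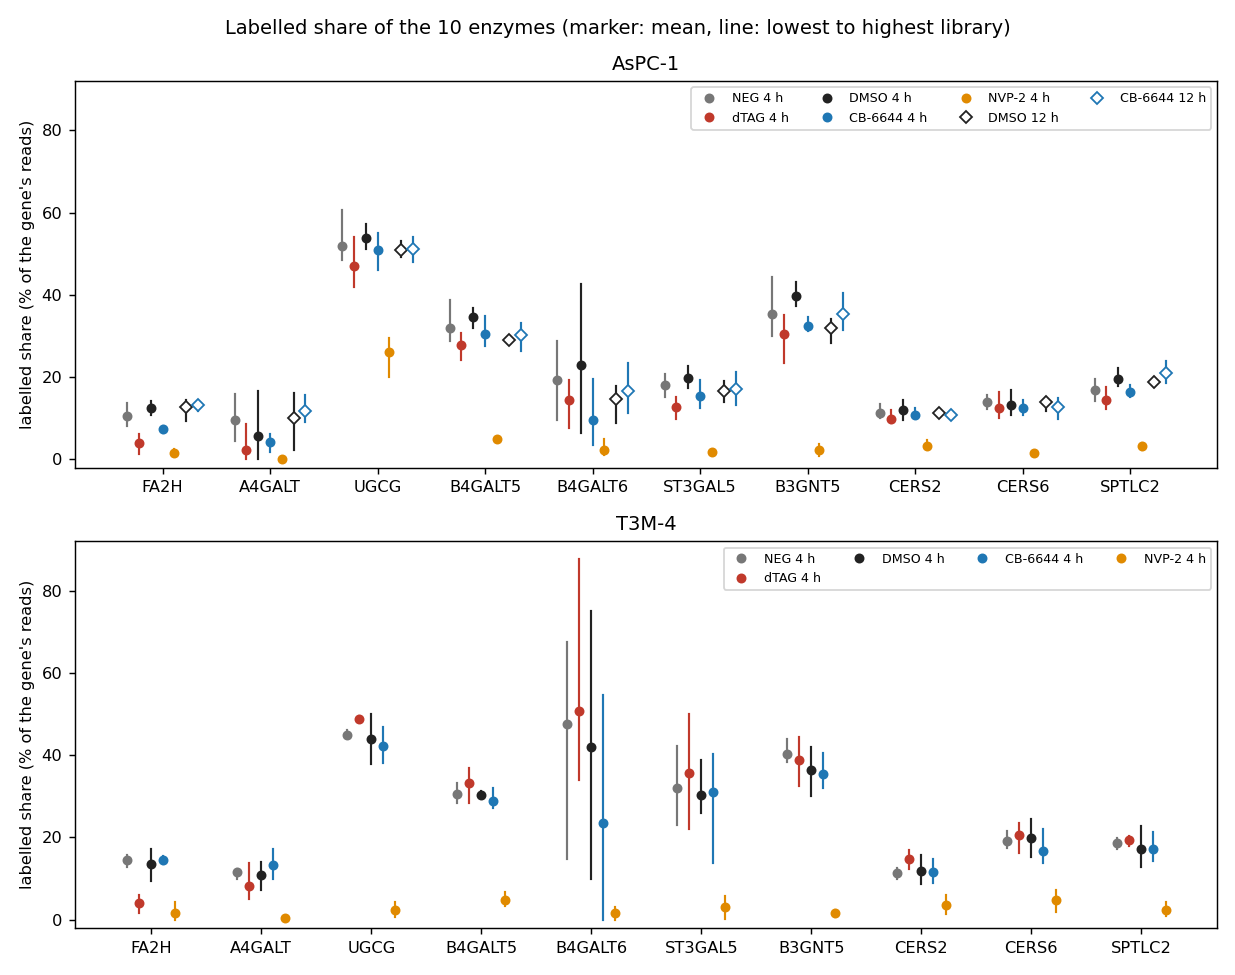
Labelled share (T>C reads in percent of all reads of the gene) of the 10 genes by group; points are group means and lines run from the lowest to the highest library. UGCG had medians of 51.5% in the AsPC-1 and 44.5% in the T3M-4 control libraries, and with NVP-2 the shares lay below every DMSO library for 8 of 9 measured genes in AsPC-1 and 9 of 9 in T3M-4.

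After degradation of KLF5, the genes of the list behaved unequally: new RNA of FA2H and A4GALT was lower with dTAG than with NEG in both lines, and the log2 fold changes of the other genes lay between -0.33 and 0.89. In AsPC-1, the T>C level of FA2H was 1.19 CPM in the lowest, 5.81 CPM at the median and 8.37 CPM in the highest of 10 dTAG libraries, and 8.76, 15.9 and 25.7 CPM in the 10 NEG libraries. The groups did not overlap, and the level was lower with dTAG in 10 of 10 pairs of libraries with the same replicate number. In T3M-4, FA2H had 2.64, 3.18, 0.986 and 0.524 CPM with dTAG and 13.1, 11.5, 7.37 and 7.30 CPM with NEG, again without overlap and lower in 4 of 4 pairs. The log2 fold change was -1.72 ± 0.31 (SE) in AsPC-1 and -2.49 ± 0.53 in T3M-4. The ratio was below 0 in each experiment, with within-experiment log2 ratios of -2.36, -0.91 and -1.69 in AsPC-1 and -2.08 and -3.28 in T3M-4.

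A4GALT was read from few T>C counts in AsPC-1, where 7 of 10 dTAG libraries had 0 and the others 1.93, 0.951 and 1.71 CPM, from 16, 8 and 20 counts. The 10 NEG libraries had 1.23 CPM in the lowest, 3.0 at the median and 7.95 in the highest, from 20 to 132 counts. Its counts were multiples of 4 in every table, so that 1 read appears to have entered them 4 times, and the depth is lower than these numbers show. Of the 10 dTAG libraries, 8 lay below every NEG library, and the log2 fold change was -3.01 ± 0.78. It was -3.00 with DESeq2, -3.57 with the experiment as a block and -3.94 with the replicate number as a block. In T3M-4, where the gene is abundant, it had 50.2, 47.6, 43.2 and 32.0 CPM with dTAG and 176, 125, 139 and 112 CPM with NEG. These groups were far apart, with a log2 fold change of -1.75 ± 0.21 and within-experiment log2 ratios of -1.62 and -1.74.

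In this contrast 2.4% of 11696 genes were called in AsPC-1, 54 higher and 227 lower. In T3M-4, 0.834% of 13424 genes were called, 12 higher and 100 lower. The contrast chose the list, so the 10 genes carry no test in it. With the replicate number as a block the counts over all genes were 848 in AsPC-1 and 299 in T3M-4 in place of 281 and 112.

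**Figure D3:**
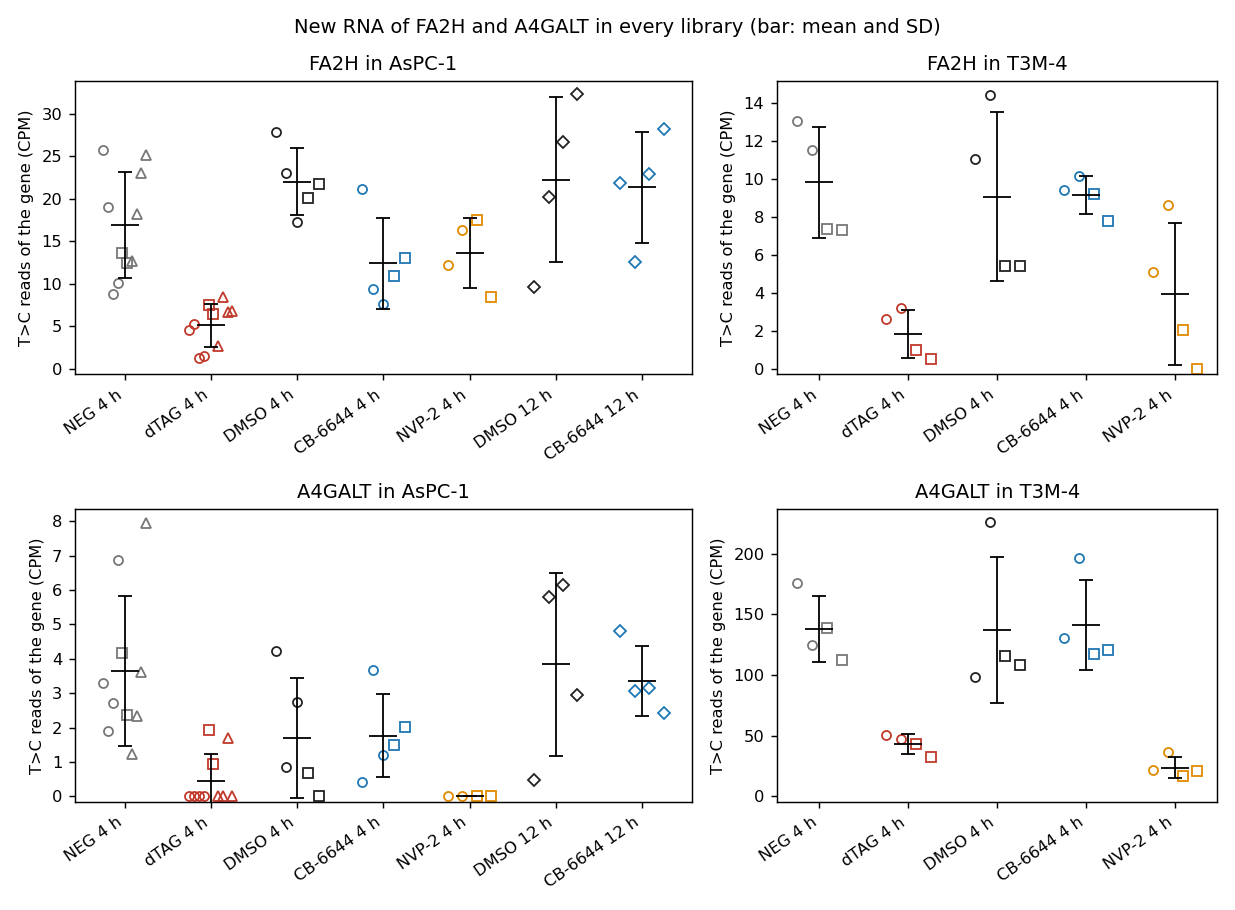
T>C level of FA2H and A4GALT in CPM in every library of AsPC-1 and T3M-4 by group; bars are means with SD, and the marker shows the experiment (circle 1, square 2, triangle 3, diamond 12 h libraries without an experiment number). With dTAG, FA2H reached at most 8.37 CPM in AsPC-1 and 3.18 CPM in T3M-4, below every NEG library of the same line.

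Labelled shares and all reads describe the same contrast on other scales. This contrast chose the list, so nothing is read from the counts of genes without overlap. The FA2H labelled share was 1.21% to 6.14% with dTAG (median 4.17%, 9 libraries with all reads) and 8.10% to 13.8% with NEG in AsPC-1 (median 10.9%). In T3M-4 it was 5.94%, 5.92%, 2.5% and 1.55% with dTAG and 14.4%, 12.9%, 15.3% and 15.8% with NEG. FA2H was the only gene of the list with shares lower in every dTAG library than in any NEG one, of 8 measured in AsPC-1 and 9 in T3M-4, where 1.72% of 10980 and 2.2% of 12252 genes showed this. A4GALT in T3M-4 had shares of 13.7%, 8.87%, 5.46% and 4.99% with dTAG and 12.1%, 11.7%, 12.3% and 9.86% with NEG, so that the dTAG library of replicate 1.1 lay above all controls. UGCG in T3M-4 was the 1 gene of 9 whose shares were higher in every dTAG library, 48.1% to 49.6% against 44.1% to 46.1%, beside 3.28% of all genes. After division by the library share, UGCG overlapped (0 of 9 genes higher, beside 2.3% of all genes), and FA2H was still lower without overlap in both lines, beside 0.31% and 2.79% of all genes. In all reads, which also hold RNA made before treatment, the log2 fold changes were smaller, -0.53 ± 0.14 for FA2H and -1.51 ± 0.35 for A4GALT in AsPC-1 and -0.69 ± 0.29 and -1.04 ± 0.24 in T3M-4.

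The other 8 genes showed no shared direction. UGCG had T>C levels of 104 CPM in the lowest, 176 at the median and 386 in the highest AsPC-1 dTAG library and 77.8, 129 and 321 CPM with NEG. It was higher with dTAG in 8 of 10 pairs in AsPC-1 and in 4 of 4 in T3M-4, with log2 fold changes of 0.47 ± 0.26 and 0.46 ± 0.33, and the levels of the groups overlapped in both lines. With T>C reads scaled by all reads the AsPC-1 value was 0.07 ± 0.28. The mean labelled share of UGCG there was 47.0% with dTAG and 52.0% with NEG, and the share of the whole library was also lower with dTAG. With the replicate number as a block the AsPC-1 value was 0.51 ± 0.12, and with library set and experiment as blocks it was 0.53 ± 0.12. Within the library sets the log2 ratios were 0.42, 0.52 and 0.44. The UGCG ratios within experiments were 0.95, 0.44 and 0.10 in AsPC-1 and 0.72 and 0.18 in T3M-4 on the log2 scale. ST3GAL5 was lower in 9 of 10 AsPC-1 pairs (log2 -0.33 ± 0.16), with 416, 667 and 1110.3 CPM as the lowest, median and highest dTAG levels and 768, 856 and 1087 CPM with NEG, and its log2 fold change in T3M-4 was -0.09 ± 0.48. B4GALT5 varied little, with 83.9 to 101 CPM with dTAG and 92.6 to 114 CPM with NEG in AsPC-1 (log2 -0.16 ± 0.07, lower in 8 of 10 pairs), and -0.04 in T3M-4. SPTLC2 had -0.30 ± 0.17 and 0.18 ± 0.21, CERS6 0.16 ± 0.15 and 0.00, CERS2 0.10 ± 0.11 and -0.03, and B3GNT5 -0.03 ± 0.23 and -0.05 in the 2 lines. B4GALT6 had 0.15 ± 0.51 and 0.89 ± 0.68, from levels of 8.04 CPM or less. The median log2 fold change of the list was -0.10 in AsPC-1 and -0.03 in T3M-4, beside 0.03 and 0.01 over all genes.

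Among the 61 wider sphingolipid genes, 1 of 44 tested in AsPC-1 was past the threshold in the dTAG contrast, beside 2.4% of all genes. In T3M-4 none of 46 was, beside 0.834% of all genes. There 4 of the 46 had an unadjusted p under 0.05 (edgeR), beside 957 of 13424 genes. The 1 gene was B3GALT5, whose T>C level was 84.7 ± 20.5 CPM with dTAG and 141 ± 24.2 CPM with NEG (SD, n = 10 each; log2 -0.72 ± 0.14) and whose labelled share was 11.4% and 15.2%.

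Inhibition of RUVBL1/2 with CB-6644 was compared with DMSO to ask whether the genes moved when this ATPase was blocked. At 4 h in AsPC-1, FA2H had the lowest fold change of the list apart from the sparsely read B4GALT6, but 0 of the genes tested were called in any of the 3 CB-6644 comparisons. FA2H had 21.2, 9.30, 7.58, 10.8 and 13.0 CPM with CB-6644 and 27.9, 23.1, 17.2, 20.1 and 21.7 CPM with DMSO. In 4 of 5 CB-6644 libraries the level lay below all DMSO libraries, with replicate 1.1 the exception. The log2 fold change was -0.87 ± 0.28 (unadjusted p = 0.00791, adjusted p = 0.98 in edgeR, 0.3 to 1 over 18 alternatives with 0 calls). The share of genes called was 0% of 11649 genes tested, with 482 at an unadjusted p under 0.05 and 1 called by DESeq2.

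The labelled share of FA2H separated the groups fully. It was 7.72%, 7.87%, 6.70%, 6.42% and 8.13% with CB-6644 and 13.7%, 14.3%, 10.8%, 12.1% and 11.8% with DMSO, or 7.37% ± 0.76 against 12.5% ± 1.44 (SD, n = 5 each). B3GNT5 also did not overlap, with 31.3% to 34.7% against 37.3% to 43.1%, so that 2 of 9 measured genes of the list were lower in every CB-6644 library, beside 7.88% of 10961 genes. The labelled share of the whole library was itself lower with CB-6644, at 8.51% ± 0.25 against 10.1% ± 0.62 (n = 5 each). After division by the library share, FA2H alone of the 9 remained without overlap, beside 0.876% of all genes.

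Among the other genes in AsPC-1 at 4 h, ST3GAL5 had 899.7, 630.4, 787, 978 and 1047 CPM with CB-6644 and 1264, 899.5, 1262, 944 and 1243 CPM with DMSO, with overlap (log2 -0.43 ± 0.17, unadjusted p = 0.0272, adjusted p = 0.98, edgeR; 0.432 to 1 over 18 alternatives). FA2H and ST3GAL5 were the 2 of 10 genes with an unadjusted p under 0.05. A4GALT had 0.02 ± 0.84, UGCG 0.01 ± 0.24, SPTLC2 -0.02 ± 0.28, B3GNT5 -0.04 ± 0.31, B4GALT5 0.13 ± 0.16, CERS2 -0.10 ± 0.14 and CERS6 0.12 ± 0.18 on the log2 scale, each a fold change with its SE. B4GALT6 had -1.0 ± 0.93, from 0.374 to 5.32 CPM.

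At 12 h in AsPC-1, FA2H had 21.8, 12.5, 22.9 and 28.2 CPM with CB-6644 and 9.62, 20.2, 26.7 and 32.3 CPM with DMSO, with full overlap (log2 -0.15 ± 0.40). Its labelled shares were 11.9%, 13.0%, 14.1% and 13.8% against 9.47%, 13.0%, 14.5% and 14.4%. The share called was 0% of 12204 genes (473 at an unadjusted p under 0.05, 26 called by DESeq2), and the lowest adjusted p of the 10 genes was 0.998 in edgeR. No gene of the list had lower shares in every CB-6644 library (0 of 10 measured), beside 2.1% of all genes. The change of the FA2H effect from 4 h to 12 h was 0.72 ± 0.49 on the log2 scale and was not called (unadjusted p = 0.156, adjusted p = 1, edgeR), as were 0% of 12720 genes (414 unadjusted, 0 by DESeq2). UGCG had -0.29 ± 0.27, A4GALT -0.29 ± 0.64 and B4GALT6 0.40 ± 0.68, and the rest lay between -0.25 and 0.18.

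In T3M-4, FA2H had 9.41, 10.2, 9.18 and 7.77 CPM with CB-6644 and 11, 14.4, 5.39 and 5.41 CPM with DMSO, and A4GALT had 131, 197, 117 and 121 CPM and 98.4, 227, 115 and 108 CPM. Both overlapped, with log2 fold changes of -0.08 ± 0.34 and -0.06 ± 0.29. The FA2H levels of the DMSO libraries were higher in both replicates of experiment 1 than in those of experiment 2. ST3GAL5 had the lowest fold change, -0.64 ± 0.42 (adjusted p = 0.994, edgeR), from 163, 126, 94.5 and 43.5 CPM against 254, 196, 79.9 and 83.9 CPM. B3GNT5 was at -0.37 ± 0.18 (unadjusted p = 0.0673) and lower in 4 of 4 pairs. Of 9 genes tested (B4GALT6 was too low), 0 were called, as were 0% of 13444 genes (569 unadjusted, 7 by DESeq2), and 0 of 9 had lower shares in every CB-6644 library, beside 1.34%. The effect of CB-6644 on FA2H in T3M-4 minus that in AsPC-1 was 0.78 ± 0.45 on the log2 scale (unadjusted p = 0.0992, adjusted p = 1, edgeR), and 0% of 13963 genes were called for such a difference (511 unadjusted, 3 by DESeq2). The median log2 fold change of the list was -0.03 at 4 h in AsPC-1, -0.08 in T3M-4 and -0.10 at 12 h, beside -0.01, 0.00 and -0.01 over all genes. Of the wider 61 genes, 0 of 42, 0 of 47 and 0 of 44 tested were called, with 2, 1 and 2 at an unadjusted p under 0.05.

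**Figure D4:**
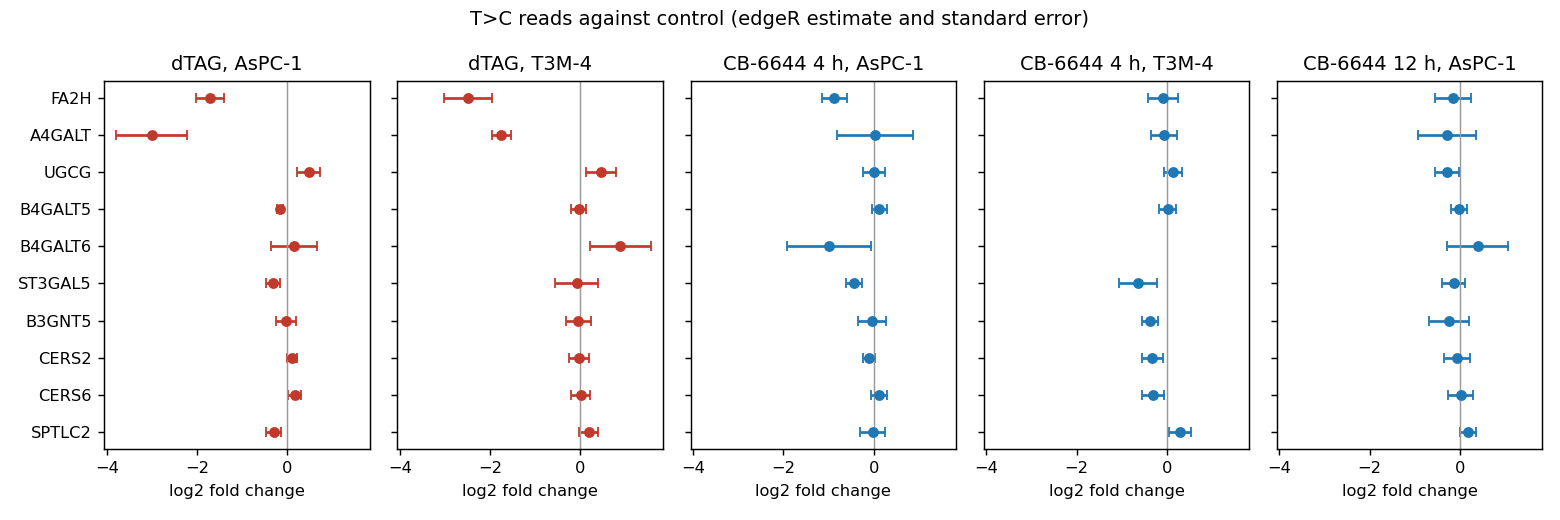
Log2 fold change (edgeR, T>C reads) with SE of the 10 genes for dTAG against NEG and for CB-6644 against DMSO at 4 h in both lines and at 12 h in AsPC-1; B4GALT6 was not tested with CB-6644 in T3M-4. FA2H stood at -1.72 and -2.49 with dTAG and at -0.87, -0.08 and -0.15 with CB-6644.

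Inhibition of CDK9 by NVP-2, included in the study as a general block of transcription elongation, lowered the label of nearly everything. The labelled share of the whole library was 1.57% ± 0.24 with NVP-2 against 10.1% ± 0.62 with DMSO in AsPC-1 (SD, n = 4 and 5), and 2.24% ± 0.42 against 12.4% ± 1.56 in T3M-4 (n = 4 each). Fold changes with NVP-2 are therefore relative to the remaining labelled RNA, and with T>C reads scaled by all reads the median log2 fold change of all genes was -3.26 in AsPC-1 and -3.09 in T3M-4, in place of -0.05 and -0.12. The same scaling put that median at -0.22 for dTAG in AsPC-1 (0.03 before), 0.12 for dTAG in T3M-4 (0.01 before) and -0.19 for CB-6644 at 4 h in AsPC-1 (-0.01 before). The NVP-2 libraries of AsPC-1 were batch 2 and the DMSO libraries at 4 h were batch 1, so batch and treatment cannot be told apart there. Fold changes against the DMSO libraries at 12 h (batch 2) are given for the called genes of the list, and group means for those named from the wider set.

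In AsPC-1, 3 of 9 genes tested were called, UGCG and CERS2 higher and B3GNT5 lower relative to the remaining labelled RNA, beside 30.5% of 11498 genes (1488 higher, 2018 lower). UGCG had 366, 680.5, 193 and 216 CPM with NVP-2 and 93.6, 137, 73.7, 156 and 166 CPM with DMSO, without overlap. This is a log2 fold change of 2.07 ± 0.38 (adjusted p = 0.00216, edgeR) that turned to -1.12 when T>C reads were scaled by all reads. Against DMSO at 12 h it was 1.70 (adjusted p = 0.0106; 3.13e-06 to 0.794 over 17 alternatives). CERS2 had 214, 198, 228 and 166 CPM against 129.8, 124, 153, 119 and 142 CPM (log2 1.13 ± 0.19, adjusted p = 0.00139, edgeR; 5.2e-09 to 0.919 over 17 alternatives), -2.07 when scaled by all reads and 1.60 against DMSO at 12 h. B3GNT5 had 5.12, 7.29, 3.09 and 5.35 CPM against 37.6, 36.1, 80.1, 59.3 and 54.7 CPM. It was lower under every scaling tried and was called in 17 of 17 alternatives (log2 -2.83 ± 0.38, adjusted p = 0.00034, edgeR; -2.64 against DMSO at 12 h). In all reads, B3GNT5 was also lower (log2 -1.66, adjusted p = 0.00666, 8.99e-11 to 0.00666 over the alternatives), whereas UGCG and CERS2 were at 0.21 and 0.04 and not called.

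Of the genes not called in AsPC-1, FA2H had 12.2, 16.3, 17.5 and 8.48 CPM with NVP-2 (log2 -0.15 ± 0.29, adjusted p = 0.728, edgeR). In T3M-4 it had 5.07, 8.63, 2.04 and 0 CPM, and the log2 fold change was -0.74 ± 0.84 (adjusted p = 0.551, edgeR), with overlap. B4GALT6, CERS6 and SPTLC2 had log2 fold changes of 0.57, 0.37 and 0.12, which turned to -2.77, -2.88 and -3.07 when scaled by all reads, and ST3GAL5 and B4GALT5 had -0.33 and -0.06. A4GALT had 0 T>C reads in all 4 NVP-2 libraries, and 36, 12, 28, 8 and 0 counts in the DMSO libraries. With 1132 counts of all reads, or 283 reads counted once, a count of 0 allows a labelled share of up to 1.06% over the 4 libraries and of 3.80% to 4.92% in single ones, and no fold is given since the DMSO libraries lie near this floor as well. In all reads, A4GALT had 1.58, 1.44, 1.68 and 1.47 CPM with NVP-2 and 2.41 to 4.32 CPM with DMSO, without overlap (log2 -0.88, adjusted p = 0.0457, edgeR).

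In T3M-4, 4 of 9 genes tested were called, A4GALT and B3GNT5 lower and CERS2 and CERS6 higher relative to the remaining labelled RNA, beside 26.7% of 12242 genes (1523 higher, 1740 lower). A4GALT had 21.3, 36.1, 16.3 and 20.5 CPM against 98.4, 227, 115 and 108 CPM (log2 -2.0 ± 0.35, adjusted p = 0.00257, edgeR; 3.33e-06 to 0.723 over 17 alternatives, 16 of them called). Its all-reads level, at 78.0, 128, 137 and 141 CPM, stayed close to that of DMSO (log2 -0.25, adjusted p = 0.723). B3GNT5 had 11.1, 9.03, 2.27 and 5.92 CPM against 40.8, 37.3, 26.5 and 32.0 CPM (log2 -1.77 ± 0.42, adjusted p = 0.0107, edgeR; 6.83e-05 to 0.64 over 17 alternatives). Both genes were without overlap and lower under every scaling. CERS2 had 59.3, 73.5, 44.9 and 25 CPM against 26.1, 36.1, 27.5 and 28.4 CPM, with replicate 2.2 below all controls (log2 1.3 ± 0.32, adjusted p = 0.0125, edgeR; 0.000116 to 0.671 over 17 alternatives), and -1.64 when scaled by all reads. ST3GAL5 had -0.67, and B4GALT5 and SPTLC2 had 0.33 and 0.28, which turned to -2.59 and -2.57 when scaled by all reads, none of them called before that scaling. The median log2 fold change of the tested genes was -0.67, and 0.12 in AsPC-1, beside -0.12 and -0.05 over all genes. In batch 2 alone neither B3GNT5 (log2 -2.05, adjusted p = 0.0878) nor CERS2 (1.11, adjusted p = 0.119) was called.

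CERS6 in T3M-4 had 71.4, 62.6, 29.0 and 43.6 CPM with NVP-2 and 36.2, 29.9, 51.9 and 36.4 CPM with DMSO, with overlap (log2 0.93 ± 0.31, adjusted p = 0.0462, edgeR; 0.00178 to 0.514 over 17 alternatives, 7 of them called), and -1.98 when scaled by all reads. Its call was lost without DMSO replicate 1.1 (log2 0.90, adjusted p = 0.113), 1.2 (0.84, adjusted p = 0.12) or 2.2 (0.94, adjusted p = 0.106) and without NVP-2 replicate 1.1 (0.79, adjusted p = 0.098), 1.2 (0.89, adjusted p = 0.0931) or 2.2 (0.89, adjusted p = 0.0672). UGCG had 41.8, 40.7, 2.95 and 4.31 CPM with NVP-2 against 80.8, 60.9, 46.7 and 54.8 CPM with DMSO. All 4 NVP-2 libraries lay below all controls, and the drop was much larger in experiment 2, so that the log2 fold change was -0.38 in batch 1, -3.02 in batch 2 and -1.04 ± 0.65 over both (adjusted p = 0.271, edgeR; 0.00219 to 0.803 over 17 alternatives). It was called in batch 2 alone (adjusted p = 0.0204, edgeR), with the experiment as a block (log2 -1.64, adjusted p = 0.0403, edgeR) and with T>C reads scaled by all reads (-3.80, adjusted p = 0.00219, edgeR).

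UGCG thus moved in opposite directions relative to the remaining labelled RNA in the lines, higher in 4 of 4 NVP-2 libraries of AsPC-1 and lower in 4 of 4 of T3M-4. The difference of the effects was -3.13 ± 0.78 on the log2 scale (unadjusted p = 0.000795, adjusted p = 0.0645, edgeR, not called). It was called by 2 of 3 alternatives, whose adjusted p ran from 0.00708 to 0.0617. Over all genes, 0.851% of 13159 were called for such a difference, and 0 of the 10 genes were.

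The labelled shares are given here without division by the library share. They were lower in every NVP-2 library than in any DMSO library for 8 of 9 measured genes in AsPC-1 and 9 of 9 in T3M-4. Over all genes this held for 93.2% of 10802 and 90% of 12053. The exception was A4GALT in AsPC-1, since 1 DMSO library was at 0. UGCG kept the most of its label in AsPC-1, with shares of 20.1%, 28.8%, 29.6% and 26.4% against 51.3% to 57.3%, or 48.8% of the DMSO share. Only 1.69% of 10799 genes kept more, and the median gene kept 11.9% (5th to 95th percentile 3.49% to 32.0%). In T3M-4, UGCG had 4.33%, 4.10%, 0.537% and 0.721% against 48.1%, 50%, 39.6% and 37.9%, or 5.51% of the DMSO share, and 84.5% of 12048 genes kept more. CERS2 kept 27.6% and 30.3% in the 2 lines, above the medians of 11.9% and 12.5%, and FA2H kept 13.4% and 12.3%, near them. B3GNT5 kept 5.98% and 4.61%, and A4GALT kept 4.43% in T3M-4, where 89.5% of genes kept more. SPTLC2 and B4GALT5 kept between 14.2% and 16.9%, and CERS6 kept 11.1% in AsPC-1 and 23.9% in T3M-4.

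**Figure D5:**
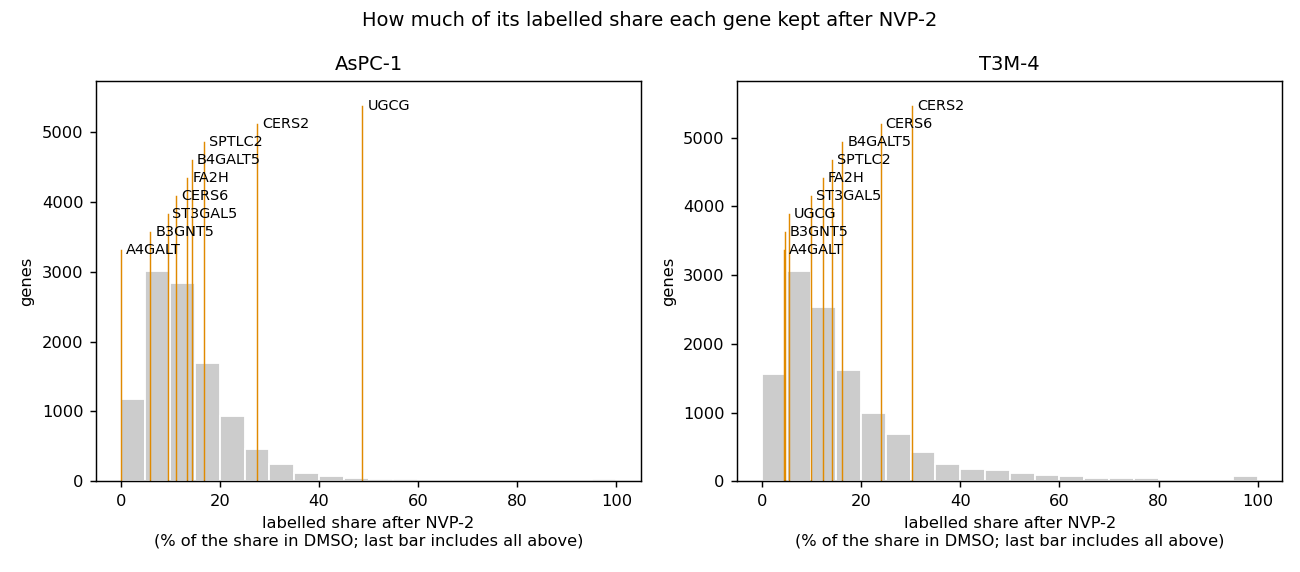
Number of genes by the labelled share kept with NVP-2, in percent of the DMSO share at 4 h, in AsPC-1 (10799 genes) and T3M-4 (12048 genes), with the measured genes of the list marked; the last bar holds all higher values. UGCG stood at 48.8% in AsPC-1 and at 5.51% in T3M-4, where the medians of all genes were 11.9% and 12.5%.

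Among the wider sphingolipid genes with NVP-2, 7 of 42 tested were higher and 6 lower in AsPC-1, and 7 of 45 higher and 2 lower in T3M-4, relative to the remaining labelled RNA. The share called over all genes was 30.5% and 26.7%. Of the breakdown genes, 5 were higher and 2 lower of 15 tested in AsPC-1, and 4 were higher and 2 lower of 14 tested in T3M-4. With T>C reads scaled by all reads, every gene named here as higher turned lower, with log2 fold changes of -0.80 (HEXA in T3M-4) to -2.18 (ASAH1 in AsPC-1), except SGPP2 (0.35). PSAP, the precursor of the saposins that present sphingolipids to lysosomal enzymes, had log2 fold changes of 1.76 ± 0.23 in AsPC-1 (adjusted p = 0.000329, edgeR) and 1.51 ± 0.37 in T3M-4 (adjusted p = 0.0124, edgeR). HEXA, a subunit of the hexosaminidase that degrades the ganglioside GM2, had 1.43 ± 0.32 (adjusted p = 0.00631, edgeR) and 2.2 ± 0.29 (adjusted p = 0.000736, edgeR). GBA2, the glucosylceramidase outside the lysosome, was lower in both under either scaling, with -1.83 ± 0.43 (adjusted p = 0.00744, edgeR) and -4.08 ± 0.92 (adjusted p = 0.0086, edgeR). In AsPC-1, SGPP2, a phosphatase of sphingosine 1-phosphate, had 3.65 ± 0.53 (adjusted p = 0.00057, edgeR). Its labelled share was 19.3% ± 6.83 against 19.8% ± 9.67 in DMSO at 4 h (SD, n = 4 and 5) and 26.2% ± 6.21 in DMSO at 12 h (n = 4). ASAH1, the acid ceramidase, had 1.08 ± 0.25 (adjusted p = 0.00736, edgeR) and B3GALT5 -1.29 ± 0.29 (adjusted p = 0.00666) in the same line. Mean T>C levels in AsPC-1 with NVP-2, DMSO at 4 h and DMSO at 12 h (batch 2) were 164, 19.3 and 39.8 CPM for SGPP2. In that order they were 73.1, 31.3 and 41.9 CPM for PSAP, 266, 142 and 108 for HEXA and 126, 86.6 and 87.1 for ASAH1. GBA2 had 6.98, 36.5 and 52.0 CPM and B3GALT5 37.0, 132 and 127 CPM. In T3M-4, SPTLC1, the partner subunit of SPTLC2, had 1.55 ± 0.27 (adjusted p = 0.00251, edgeR), B4GALT1 1.29 ± 0.32 (adjusted p = 0.0128) and ORMDL1, a regulator of that enzyme, 1.11 ± 0.28 (adjusted p = 0.0155).

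The genes whose T>C levels followed FA2H and A4GALT most closely over the 12 group means, among 11226 genes tested in both lines, are given as a description, and the difference between the lines sets much of the likeness. For FA2H they were AHNAK2 (Pearson r = 0.986), PLCD3 (0.953) and SHROOM3 (0.947). For A4GALT they were CKB (0.993), NECTIN1 (0.993) and ACOT7 (0.987).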

How the data were processed

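The authors labelled cells with 4sU, alkylated the RNA, made QuantSeq 3′ libraries and counted reads over the 3′UTR exons of GENCODE v44 (hg38) with slamdunk left at its defaults. Each deposited table holds raw, unnormalized read counts by gene, 1 table of T>C reads and 1 of all reads per line, each of 29794 genes. No spike-in and no library without 4sU was used here, so new RNA per cell and the background of T>C reads were not measured. Columns were matched to samples by name. The tables held 1 per-sample column that was not used, the all-reads column of AsPC-1 dTAG replicate 3.1, whose values are the T>C counts of DMSO replicate 2 at 12 h, which leaves 9 dTAG libraries with all reads, and 18 empty columns were dropped.

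Counts were fitted in R 4.3.3 with edgeR 4.0.16 (filterByExpr, TMM, quasi-likelihood test, limma 3.58.1), with only the groups compared in each fit, Benjamini-Hochberg adjustment over all genes tested and a threshold of 0.05. Differences between effects were interaction terms. CPM are reads per 1000000 of the library total of the same table, with no further scaling, whereas fold changes carry the TMM scaling. Labelled shares were taken over genes with at least 50 reads in every library, except that group ranges are given for all 10 genes. DESeq2 1.42.0, RLE scaling, no filter, replicate, experiment and library-set blocks, all reads, T>C reads scaled by all reads, single batches and left-out libraries were the alternatives. Library sets came from clustering AsPC-1 all reads over 500 genes with a mean of at least 5 CPM into 3 sets, chosen after seeing the data. The scripts were tested on simulated data. Python 3.11.15 with pandas 2.3.3, numpy 2.4.6, scipy 1.17.1 and matplotlib 3.10.9 was used for the rest.

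The named genes were the 10 genes in every comparison, KLF5, the 3 genes most like FA2H and A4GALT (log2 of CPM plus 1), and up to 6 called genes per comparison from the wider list of 61. The members and lists were chosen with earlier results of these data known. Counts of A4GALT were multiples of 4 and those of CERS6 of 2 in every table, and CERS2 T>C counts in T3M-4 were multiples of 3, as if reads were entered more than once, so their counting error is larger than the counts imply.

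In some comparisons same-numbered libraries deviated together in every pair (correlation of deviations from the group means over 0.1). These were dTAG in AsPC-1 (0.264 to 0.544, 10 pairs) and T3M-4 (0.168 to 0.453, 4 pairs). The others were CB-6644 in T3M-4 (0.164 to 0.433, 4 pairs) and at 12 h (0.328 to 0.651, 4 pairs). The same-numbered control was the closest match in 5 of 10, 3 of 4, 1 of 4 and 2 of 4 of these pairs. Libraries of 1 experiment or library set can also deviate together, so pairing by number is not established. Same-numbered libraries did not all deviate together for CB-6644 at 4 h in AsPC-1 or for NVP-2.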

Additional observations from a re-analysis of the deposited data

Results flagged for a closer look

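In 119 groups of 4 to 10 libraries, the highest or lowest T>C level of a gene stood apart from the others by Dixon's criterion in 5, and chance flags about 1 in 20 groups. A4GALT in T3M-4 stood high in replicate 1.2 both with CB-6644 (196.5 CPM, the others 117 to 131) and with DMSO (226.6 CPM, the others 98.4 to 115). B4GALT6 stood high in AsPC-1 CB-6644 4 h replicate 1.1 (5.32 CPM, the others 0.374 to 1.38) and in T3M-4 dTAG replicate 2.2 (3.05 CPM, the others 0.741 to 1.11). CERS2 stood high in AsPC-1 DMSO 12 h replicate 4 (164 CPM, the others 75.5 to 85.3).

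The estimated effects of NVP-2 on UGCG lay -3.13 apart on the log2 scale (T3M-4 minus AsPC-1), a difference that was not called. All 4 NVP-2 libraries of AsPC-1 lay above and all 4 of T3M-4 below their DMSO libraries in T>C CPM. In AsPC-1 batch and treatment cannot be told apart. With T>C reads scaled by all reads both fold changes were below 0, at -1.12 in AsPC-1 and -3.80 in T3M-4. The interaction term had an adjusted p of 0.0645 in edgeR, so the difference missed the threshold.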

How the results depend on the processing

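Of 1049 recomputed values with a test, 928 kept their direction and their side of the threshold, 18 lost a call, 14 gained one, 9 reversed and 80, in 25 of 87 results, changed sign with no call in either setting. These values are the fold changes of the 10 genes. The 9 reversed values were those of NVP-2 with T>C reads scaled by all reads, which were in AsPC-1 -1.12 for UGCG, -2.77 for B4GALT6, -2.07 for CERS2, -2.88 for CERS6 and -3.07 for SPTLC2, and in T3M-4 -2.59 for B4GALT5, -1.64 for CERS2, -1.98 for CERS6 and -2.57 for SPTLC2 (log2). By construction this scaling keeps the loss of label.

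For dTAG in AsPC-1 (281 genes called) the count was 493 with DESeq2, 848 with the replicate block, 438 with the experiment block, 909 with set and experiment block, 111 with all reads, 941 scaled by all reads (12 higher and 929 lower, against 54 and 227), 103 in batch 1, 16 in batch 2 and 36 to 256 with an experiment left out (36 without experiment 1). For dTAG in T3M-4 (112) it was 347 with DESeq2, 299 with the replicate block, 346 with the experiment block, 3 with all reads, 38 in batch 1, 123 in batch 2 and 22 to 70 with any 1 library left out (without dTAG replicate 1.1, 1.2, 2.1 or 2.2 it was 63, 60, 22 and 56, and without NEG replicate 1.1, 1.2, 2.1 or 2.2 it was 50, 70, 39 and 48). The cause was not tested.

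With CB-6644 (0 called), DESeq2 called 1 gene at 4 h in AsPC-1, 7 in T3M-4, 26 at 12 h and 3 for the difference between lines, all reads called 2 in T3M-4, set blocking 1 at 12 h, and left-out libraries gave 0 to 1, 0 to 0 and 0 to 0 (1 without AsPC-1 DMSO replicate 2.1). The replicate block left all of them at 0. With NVP-2, all reads gave 1667 (AsPC-1) and 807 (T3M-4), scaling by all reads 10829 (6 higher, 10823 lower) and 10680 (9 higher, 10671 lower), and left-out libraries 2663 to 3517 and 2168 to 3693 (2168 without T3M-4 DMSO replicate 2.2). For NVP-2 same-numbered libraries did not all deviate together (correlations -0.09 to 0.185 and 0.0707 to 0.368). The replicate block gave 2380 and 2987 calls and an adjusted p of 0.104 (edgeR) for CERS6 in T3M-4. The correlations were -0.0811 to 0.472 for CB-6644 at 4 h in AsPC-1. DESeq2 called 599 genes for the NVP-2 difference between lines (112 in edgeR), and the line comparison gave 7850 to 8495 with a library left out. The block changed no other call of the 10 genes that carry a test.

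Divided by the library share, the genes whose labelled shares did not overlap were 1 lower for CB-6644 at 4 h in AsPC-1 (2 lower before; 0.876% of all genes), 1 higher at 12 h (B3GNT5; 0 before; 3.02%), 3 lower (27%) and 2 higher (UGCG and CERS2; 6.03%) with NVP-2 in AsPC-1, 5 in all (8 lower before), and 3 lower in T3M-4 (9 lower before; 32.1%). With a library left out they numbered 2 to 3 for CB-6644 at 4 h in AsPC-1, 0 to 1 in T3M-4 (1 without CB-6644 replicate 2.1), 0 to 1 at 12 h (1 without CB-6644 replicate 3), and 8 to 10 and 9 to 9 with NVP-2. Few T>C reads limit A4GALT in AsPC-1 and B4GALT6 in both lines.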
